A study of Mus musculus with 2 samples.

Results

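The genes described here make up the machinery that brings proteins into the endoplasmic reticulum (ER), folds them there and disposes of those that fail. They are 40 named genes among the 27998 genes measured, taken by symbol and not by any measured value, and all 40 were found. They fall into 8 roles. The Hsp70 and Hsp90 cycle of the ER holds 8 genes, the lectin chaperones 2, disulfide formation 6, ER-associated degradation 6, the signal recognition particle 3, the translocon 10, the signal peptidase together with the oligosaccharyltransferase 4, and the COPII coat 1. The samples were lungs of C57Bl6 mice, all of them injured on day 1 with bleomycin, which scars the lung. The navitoclax library came from mice given navitoclax (ABT-263), an inhibitor of BCL-2 and its relatives, from day 15 to day 20. The vehicle library came from mice given bleomycin and vehicle, going by the treatment label and title of that sample, since both samples carry 1 shared protocol text in which dosing is described for navitoclax only. In both, lungs were digested at 21 days after the injury, epithelial and stromal cells were sorted by flow cytometry, and the sorts were pooled at equal numbers for single-cell RNA sequencing. The genotype is given only as C57Bl6, neither library is from uninjured mice, and the labels do not say how many mice each library holds. There was 1 library per treatment, so no difference between treatments has a replicate check and none is given a test.

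Proteins bound for secretion or for membranes are recognised by the signal recognition particle while they are being made and are threaded through the Sec61 translocon into the ER. There the Hsp70 chaperone BiP, the lectin chaperones and the disulfide isomerases fold them, and COPII vesicles carry them onward, while misfolded chains are drawn back out and degraded. When folding falls behind, the sensors IRE1α, ATF6 and PERK switch on genes of these same steps through the transcription factors XBP1, ATF6 and ATF4. Type II cells of the alveolus, which make surfactant, and fibroblasts, which make collagen, both have a heavy secretory load. ER stress in type II cells is well known from pulmonary fibrosis, and the series asks how BCL-2 bears on IRE1α activation, ER stress and lung fibrosis.

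Promoter sequences are shown first because several of these genes are known to be induced through one short element. The ER stress response element (ERSE) is CCAAT and CCACG with 9 bases of any kind between them, ERSE-II is ATTGG and CCACG with 1 base between them, and the core of the unfolded protein response element (UPRE) is TGACGTG. Each was searched on both strands from 250 bases before to 50 bases after the start of each gene in the RefSeq promoter table (GRCm38.p6, the assembly also called mm10). The table held 31 of the 40 genes. ERSE was found in 9 of these 31 (29.0%), against 37 of all 27025 genes of the table (0.137%, or 0.119% of its 32851 promoters). ERSE-II was found in 1 of 31, against 12 of all genes (0.0365% of promoters). The UPRE core was found in 3 of 31 (9.68%), namely Hspa5, Txndc5 and Sec24d, against 601 of all genes (2.22%, or 2.01% of promoters). No gene held both ERSE and ERSE-II. A match describes the letters and does not show that a factor binds there. The 250 bases before the start of Hspa5, the gene of BiP, at chr2:34771840-34772089 on the plus strand, follow with the ERSE match in capitals.
Hspa5: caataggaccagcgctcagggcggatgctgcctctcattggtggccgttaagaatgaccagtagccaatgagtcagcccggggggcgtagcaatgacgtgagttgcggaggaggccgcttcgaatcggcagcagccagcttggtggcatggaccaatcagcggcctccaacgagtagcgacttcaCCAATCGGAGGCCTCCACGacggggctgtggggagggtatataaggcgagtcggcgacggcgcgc

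The 10 ERSE matches and the ERSE-II match of these genes are shown with their flanks, 5′ to 3′ on the strand of the gene, to let the sites be compared letter by letter. Capitals mark the element, which in Calr, Creld2, Derl3 and the first Hsp90b1 site lies in the reverse orientation.
Hspa5 (chr2:34772015-34772053, plus strand): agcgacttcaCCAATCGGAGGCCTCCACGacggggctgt
Hsp90b1, first site (chr10:86705523-86705561, minus strand): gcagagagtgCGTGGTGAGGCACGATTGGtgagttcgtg
Hsp90b1, second site (chr10:86705628-86705666, minus strand): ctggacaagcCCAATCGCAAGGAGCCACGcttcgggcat
Dnajc3 (chr14:118937817-118937855, plus strand): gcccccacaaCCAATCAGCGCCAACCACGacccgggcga
Calr (chr8:84847065-84847103, minus strand): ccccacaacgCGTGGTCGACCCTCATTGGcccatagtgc
Canx (chr11:50325790-50325828, minus strand): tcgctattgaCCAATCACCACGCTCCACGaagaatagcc
Pdia6 (chr12:17266481-17266519, plus strand): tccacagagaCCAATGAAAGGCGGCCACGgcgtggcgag
Creld2 (chr15:88819510-88819548, plus strand): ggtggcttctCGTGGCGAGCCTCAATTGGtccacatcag
Syvn1 (chr19:6046522-6046560, plus strand): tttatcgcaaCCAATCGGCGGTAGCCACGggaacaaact
Derl3 (chr10:75893232-75893270, plus strand): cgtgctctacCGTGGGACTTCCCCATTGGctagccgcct
Dnajb11, ERSE-II (chr16:22857843-22857871, plus strand): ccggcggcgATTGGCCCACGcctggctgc

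The ERSE matches began between 44 bases before the start, in Syvn1, and 212 bases before it, in Hsp90b1, and the ERSE-II match of Dnajb11 began 7 bases after the start. The genes with a match span the chaperones, the disulfide isomerases and the degradation genes. None of the signal recognition particle and translocon genes in the table held ERSE or ERSE-II in this window.

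The navitoclax library held 98517048 UMIs and the vehicle library 97958947 (unique molecular identifiers, each standing for 1 captured transcript). After removal of doublets and of barcodes with under 500 genes or over 15% mitochondrial UMIs, 6228 navitoclax and 7174 vehicle cells remained. More barcodes lay over the mitochondrial limit in the navitoclax library (18.1%) than in the vehicle library (13.8%). The libraries shared 20 barcodes, 13 of them kept in both. Cells were assigned one by one to classes from marker genes, and each class had at least 2 of its own markers among its 10 leading genes. Since the same markers set the classes, this follows in part from the assignment and is no separate check of it. Levels are counts per 1000000 UMIs of the class (CPM), with the UMIs of a gene summed over its cells, and a gene counted as higher or lower at a ratio of at least 1.2 with 20 or more UMIs over both libraries. Intervals are 95% intervals of counting error only. Cytosolic heat shock genes were far apart between the libraries in every class compared. Hspa1a, the inducible cytosolic Hsp70, whose counts may be split with its near-identical copy Hspa1b, was at 508 CPM in navitoclax and 16.8 CPM in vehicle AT2-like cells, and at 803 and 81.4 CPM in navitoclax and vehicle fibroblast-like cells. Over the 10 genes of that list the log2 ratio of navitoclax over vehicle had a median of 0.74 in AT2-like, 0.91 in fibroblast-like, 0.36 in ciliated-like and 0.32 in transitional-like cells, and their part in the results below was not tested. Immune markers were near 0, with 8 of them summing to 1.58 CPM in navitoclax and 0.780 CPM in vehicle AT2-like cells, and to 3.88 and 2.86 CPM in fibroblast-like cells of the navitoclax and the vehicle library. The 3 plasma cell markers summed to under 1 CPM in AT2-like and fibroblast-like cells of either library, but to 18.1 CPM in navitoclax and 12.4 CPM in vehicle ciliated-like cells, and their part in the ciliated-like levels was not tested. Free RNA was present, since the AT2 markers summed to 2702 CPM in navitoclax and 2362 CPM in vehicle fibroblast-like cells, against 284327 and 276489 CPM in AT2-like cells of the same libraries.

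In type II-like (AT2-like) cells, 2395 from the navitoclax and 2693 from the vehicle library, most genes of the ER machinery were slightly higher in the navitoclax library. Of 40 genes, 37 had a ratio above 1, and the median log2 ratio was 0.15, against 0.00 over all 13298 genes tested. Over all genes 50.4% had a ratio above 1. At least 1.2-fold higher were 7 of the 40 genes, while 13.6% of all genes passed the same fold. The share of large ratios was thus near the background, and the difference lay in small ratios of one direction. Here and below, all genes include those with few UMIs, whose ratios vary more by counting error. The background is therefore not matched to the level of the 40 genes. None of the 40 was at least 1.2-fold lower, against 8.02% of all genes. The UMIs of all 40 genes together made up 5260 CPM in navitoclax and 4733 CPM in vehicle AT2-like cells, a ratio of 1.11 (1.11 to 1.12).

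Among the chaperones of the Hsp70 cycle, Hspa5 was at 376 CPM in navitoclax and 327 CPM in vehicle AT2-like cells, a ratio of 1.15 (1.13 to 1.17). Sdf2l1, which acts with J-domain proteins of the ER to keep unfolded chains soluble, was at 12.7 CPM in the navitoclax and 8.24 CPM in the vehicle library. Its ratio of 1.55 (1.36 to 1.76) was the greatest of the 40 in this class, and its log2 ratio of 0.63 became 0.37 when every cell was thinned to 2000 UMIs. Manf, a protein that stabilises BiP bound to its clients, was at 136 CPM in navitoclax and 111 CPM in vehicle cells, a ratio of 1.23 (1.18 to 1.27). Hyou1, which exchanges the nucleotide of BiP, was at 21.8 CPM in navitoclax and 17.7 CPM in vehicle cells (ratio 1.23, 1.12 to 1.34). The intervals of these 3 genes lay above 1, while differences between mice cannot be seen with 1 library each. With thinning the log2 ratio of Hyou1 was 0.01, against 0.29 with all UMIs, so that its call rests on the full depth. Dnajb9 went the other way. This J-domain co-chaperone, a well-known XBP1 target that helps BiP hold IRE1α inactive, was at 66.0 CPM in navitoclax and 76.7 CPM in vehicle cells. The ratio of 0.861 (0.821 to 0.903) did not reach the fold of 1.2. Dnajc3, a further J-domain protein, was at 138 CPM in both libraries.

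Calr encodes calreticulin, the soluble lectin chaperone, and was at 284 CPM in navitoclax and 224 CPM in vehicle AT2-like cells, a ratio of 1.27 (1.24 to 1.30). Its membrane-bound counterpart Canx was at 167 CPM in navitoclax and 158 CPM in vehicle cells, a ratio of 1.06 (1.03 to 1.09). Over the class as a whole, the soluble lectin therefore stood apart between libraries and the membrane-bound one did so little. Pdia3, the disulfide isomerase that works with both lectins, was at 183 CPM in navitoclax and 145 CPM in vehicle cells (ratio 1.26, 1.22 to 1.30), and its log2 ratio of 0.33 became 0.25 with thinning, just under the fold. Creld2, an ER protein with isomerase activity, was at 23.6 CPM in navitoclax and 19.4 CPM in vehicle cells (ratio 1.21, 1.11 to 1.33). The other 4 disulfide genes had ratios between 1.12 (Pdia6) and 1.19 (Txndc5 and Pdia4).

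The degradation genes differed little in AT2-like cells. Sel1l, the scaffold of the ubiquitin ligase Syvn1, was at 87.0 CPM in navitoclax and 88.8 CPM in vehicle cells, and Syvn1 itself at 16.8 and 16.2 CPM. Derl3, a channel-forming derlin, had a ratio of 1.47 (1.02 to 2.12), but it rests on 78 UMIs in the navitoclax and 53 UMIs in the vehicle class. The other derlins, Derl1 and Derl2, each had a ratio of 1.06, and Edem1, a lectin that hands glycoproteins over for degradation, 1.07. The signal recognition particle genes lay closest to equality, with ratios of 0.986 for Srp9, 1.03 for Srp14 and 1.06 for Srp19. All 10 translocon genes had ratios above 1, none of them at 1.2. The highest were Ssr2, a subunit of the translocon-associated TRAP complex, at 169 CPM in navitoclax and 144 CPM in vehicle cells (1.18, 1.14 to 1.21), and Serp1, which steadies the translocon under stress, at 135 and 116 CPM (1.17, 1.13 to 1.21). Ostc, an oligosaccharyltransferase subunit, had a ratio of 1.15 (1.10 to 1.19), the 3 signal peptidase genes Spcs1, Spcs2 and Spcs3 had ratios of 1.09, 1.09 and 1.11, and Sec24d, which selects cargo such as procollagen for COPII vesicles, 1.11 (1.00 to 1.23).

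**Figure D1:**
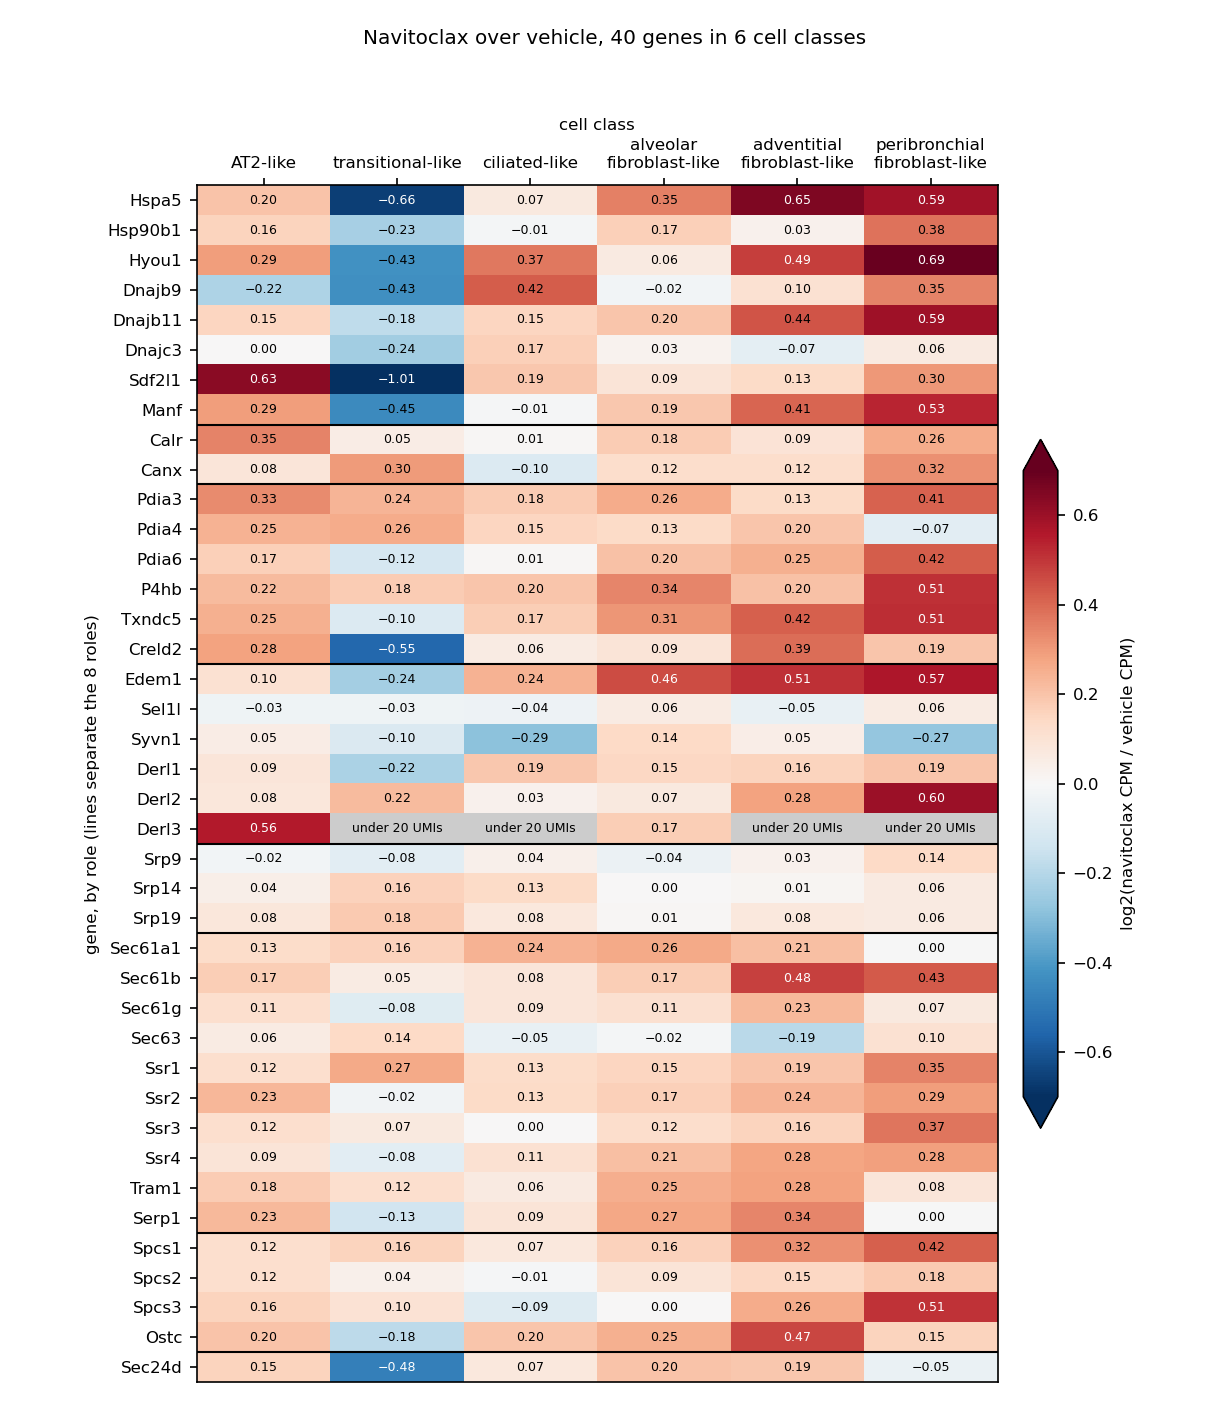
Log2 ratio of navitoclax CPM over vehicle CPM for the 40 genes (down the page, with lines between the 8 roles) in 6 cell classes (across), with red for higher and blue for lower in the navitoclax library, and grey where fewer than 20 UMIs were counted. The AT2-like column is faintly red except for Dnajb9 (−0.22), Sel1l and Srp9, the fibroblast columns are redder from left to right, and the transitional-like column holds most of the blue cells.

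The fibroblast-like class held 2753 navitoclax and 3325 vehicle cells. Here the median log2 ratio of the 40 genes was again 0.15, against 0.01 over 13586 genes. Ratios above 1 were seen for 35 of 40 genes, against 51.4% of all genes. At least 1.2-fold higher were 7 of 40 (14% of all genes, again near the background), and 1 of 40 was at least 1.2-fold lower (10.3% of all genes). That 1 was Derl3, with 18 UMIs in navitoclax and 24 UMIs in vehicle cells. Together the 40 genes made up 7870 CPM in navitoclax and 6943 CPM in vehicle fibroblast-like cells, a ratio of 1.13 (1.13 to 1.14).

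Hspa5 led in fibroblast-like cells, with 703 CPM in the navitoclax and 521 CPM in the vehicle library, a ratio of 1.35 (1.32 to 1.38). Edem1 followed, at 31.2 CPM in navitoclax and 23.6 CPM in vehicle cells (1.32, 1.19 to 1.47). The disulfide isomerase gene P4hb, whose product is also a subunit of the prolyl hydroxylase that modifies collagen, was at 261 CPM in navitoclax and 212 CPM in vehicle cells (1.23, 1.19 to 1.28). Txndc5, an isomerase known for its role in lung fibroblasts, was at 162 CPM in navitoclax and 131 CPM in vehicle cells (1.23, 1.18 to 1.29). These 4 genes serve folding or the clearance of misfolded chains. Most other genes of those roles did not pass the fold, Dnajb9 and Dnajc3 (below) among them, so no theme is read from the 4. Ostc was at 226 CPM in navitoclax and 186 CPM in vehicle cells (1.22, 1.17 to 1.27). Of the translocon genes, Tram1, which helps nascent chains enter the membrane, was at 107 and 89.1 CPM in navitoclax and vehicle cells, and Serp1 at 93.9 and 78.0 CPM, with ratios of 1.203 and 1.204. With cells thinned to 2000 UMIs, Hspa5, P4hb, Edem1 and Tram1 stayed past the fold, and Txndc5, Serp1 and Ostc fell short of it, at log2 ratios of 0.22, 0.16 and 0.21. The genes that led in AT2-like cells had lower ratios in fibroblast-like cells, 1.13 (1.10 to 1.16) for Calr, 1.17 (1.14 to 1.204) for Pdia3 and 1.06 (0.972 to 1.16) for Sdf2l1, and whether the classes differ in these ratios was not tested. Dnajb9 was at 64.9 CPM in both libraries, and Dnajc3 at 253 CPM in navitoclax and 254 CPM in vehicle cells. Srp9, Srp14 and Srp19 had ratios of 1.02, 0.987 and 1.02.

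The subclasses of fibroblasts differed in how far apart the libraries were. In alveolar fibroblast-like cells (1792 navitoclax and 2359 vehicle cells) the median log2 ratio was 0.16, with 37 of 40 ratios above 1 (51.2% of all genes), 6 genes at least 1.2-fold higher (14.4% of all genes) and 0 lower (11% of all genes). In adventitial fibroblast-like cells, the cuff around large vessels and airways (441 and 470 cells of the navitoclax and vehicle libraries), the median was 0.20, against 0.02 over all genes. There 36 of 39 ratios were above 1 (52.5% of all genes), and 14 of 39 genes were at least 1.2-fold higher (19.7% of all genes) and 0 lower (16.1% of all genes). In peribronchial fibroblast-like cells (202 navitoclax and 164 vehicle cells) the median was 0.29, against 0.01 over all genes, with 34 of 39 ratios above 1 (51% of all genes), 21 of 39 genes higher (24% of all genes) and 1 lower (22.9% of all genes). In these last 2 classes the share of higher genes was above that of all genes, while in the alveolar class it was near it. The 1 lower gene was Syvn1, with 21 UMIs in navitoclax and 18 UMIs in vehicle cells. Hspa5 was at 824 CPM in navitoclax and 524 CPM in vehicle adventitial fibroblast-like cells, a ratio of 1.57 (1.49 to 1.66). In the peribronchial fibroblast-like class Hspa5 was at 743 CPM in navitoclax and 494 CPM in vehicle cells, a ratio of 1.505 (1.35 to 1.68). Adventitial fibroblast-like cells also had higher levels of Sec61b, the β subunit of the translocon, at 361 CPM in navitoclax and 259 CPM in vehicle cells (1.39, 1.29 to 1.51). Ostc in the same class was at 283 CPM in navitoclax and 205 CPM in vehicle cells (1.38, 1.26 to 1.51), and Manf at 224 and 169 CPM (1.33, 1.204 to 1.46). Hsp90b1, the ER form of Hsp90, was close to equal in adventitial fibroblast-like cells, at 718 CPM in navitoclax and 703 CPM in vehicle cells, but was at 824 and 634 CPM in peribronchial fibroblast-like cells (1.30, 1.18 to 1.44). Dnajb11, the J-domain partner of BiP with the ERSE-II match, had ratios of 1.36 (1.18 to 1.56) in the adventitial and 1.51 (1.13 to 2.02) in the peribronchial class. Heat shock genes were apart here as well, with a median log2 ratio of 1.09 in adventitial and 0.87 in peribronchial fibroblast-like cells, and their part in these ratios was not tested.

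Ciliated-like cells, 427 navitoclax and 375 vehicle cells, showed smaller ratios. The median log2 ratio was 0.08, against 0.01 over all genes, with 31 of 39 ratios above 1 (51.8% of all genes), 2 genes at least 1.2-fold higher (15.3% of all genes) and 1 lower (14% of all genes), the last 2 shares below those of all genes. Hspa5 was at 506 CPM in navitoclax and 484 CPM in vehicle cells (1.05, 0.987 to 1.11). Hsp90b1 was at 832 CPM in navitoclax and 839 CPM in vehicle cells, and Manf at 228 and 229 CPM. These 3 chaperone genes were within counting error between the libraries. The 2 genes past the fold were Hyou1 (1.29, 0.933 to 1.81) and Dnajb9 (1.34, 0.906 to 2.01), and the 1 lower gene was Syvn1 (0.8205, 0.601 to 1.12). Each of these 3 intervals included 1.

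**Figure D2:**
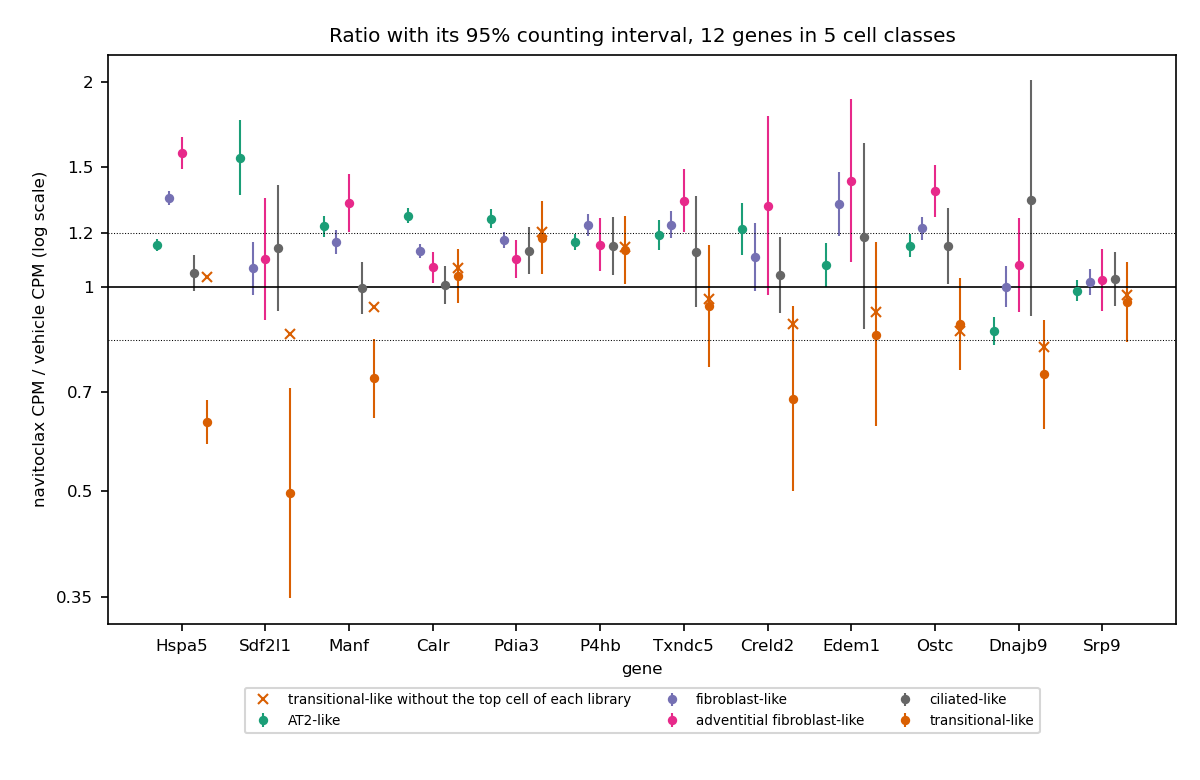
Ratio of navitoclax CPM over vehicle CPM on a log scale for 12 genes in 5 cell classes, with bars for the 95% counting interval and dotted lines at 1.2-fold in both directions. Hspa5 lies highest in adventitial fibroblast-like cells (1.57) and lowest in transitional-like cells (0.632), where the crosses show the values without 1 cell of each library.

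Transitional-like cells, an injury-induced state on the way from AT2 to AT1 cells, were the 1 class of the 7 compared with a median below 0. The class held 174 navitoclax and 129 vehicle cells. Of AT2-like and transitional-like cells together, 137 navitoclax and 89 vehicle cells lay within 0.05 of the bounding marker score, on either side of it. The median log2 ratio of 39 genes was −0.08, against 0.03 over all genes, and 17 of 39 ratios were above 1 (54.5% of all genes). At least 1.2-fold lower were 7 of 39 (16.6% of all genes) and at least 1.2-fold higher 2 of 39 (24.6% of all genes), the first share near the background and the second below it. Hspa5 was at 383 CPM in navitoclax and 606 CPM in vehicle cells, a ratio of 0.632 (0.587 to 0.682). Sdf2l1 was at 16.4 CPM in navitoclax and 33.0 CPM in vehicle cells (0.498, 0.349 to 0.709), and Manf at 134 and 182 CPM (0.733, 0.642 to 0.838). Creld2 was at 24.3 CPM in navitoclax and 35.6 CPM in vehicle cells (0.684, 0.5004 to 0.936). All 4 of these folding genes were thus lower in the navitoclax library. A single vehicle cell carried much of this. It had 21843 UMIs, of which 1378 were of the 40 genes (6.31%), and it held 583 of the Hspa5 UMIs of the vehicle class (42.3%), 36 of Sdf2l1 (48.0%), 99 of Manf (23.9%) and 22 of Creld2 (27.2%). Without the cell richest in these genes in each library, the log2 ratios were 0.05 for Hspa5, −0.23 for Sdf2l1, −0.10 for Manf and −0.18 for Creld2, and 4 genes were at least 1.2-fold higher and 3 lower. The direction of Hspa5 therefore turned and the fold of the other 3 shrank. The 40 genes together were at 4907 CPM in the median navitoclax cell and 4097 CPM in the median vehicle cell, while the class sums were 5434 CPM in navitoclax and 5737 CPM in vehicle cells. The 2 genes higher in the navitoclax library were Canx, at 171 CPM against 139 CPM in vehicle cells (1.23, 1.07 to 1.41), and Ssr1, the α subunit of TRAP, at 77.1 against 64.1 CPM in vehicle cells (1.202, 0.981 to 1.48). The remaining 3 of the 7 lower genes were Hyou1 (0.744), Dnajb9 (0.743, 0.618 to 0.894) and Sec24d (0.717), and the intervals of Hyou1 and Sec24d included 1. Hyou1 and Dnajb9, like Hspa5, Sdf2l1 and Manf, belong to the Hsp70 and Hsp90 cycle. Without the top cell of each library, Hspa5, Sdf2l1 and Manf fell short of the fold. With the count of lower genes near the background as well, no pattern by role is read from the 7.

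**Figure D3:**
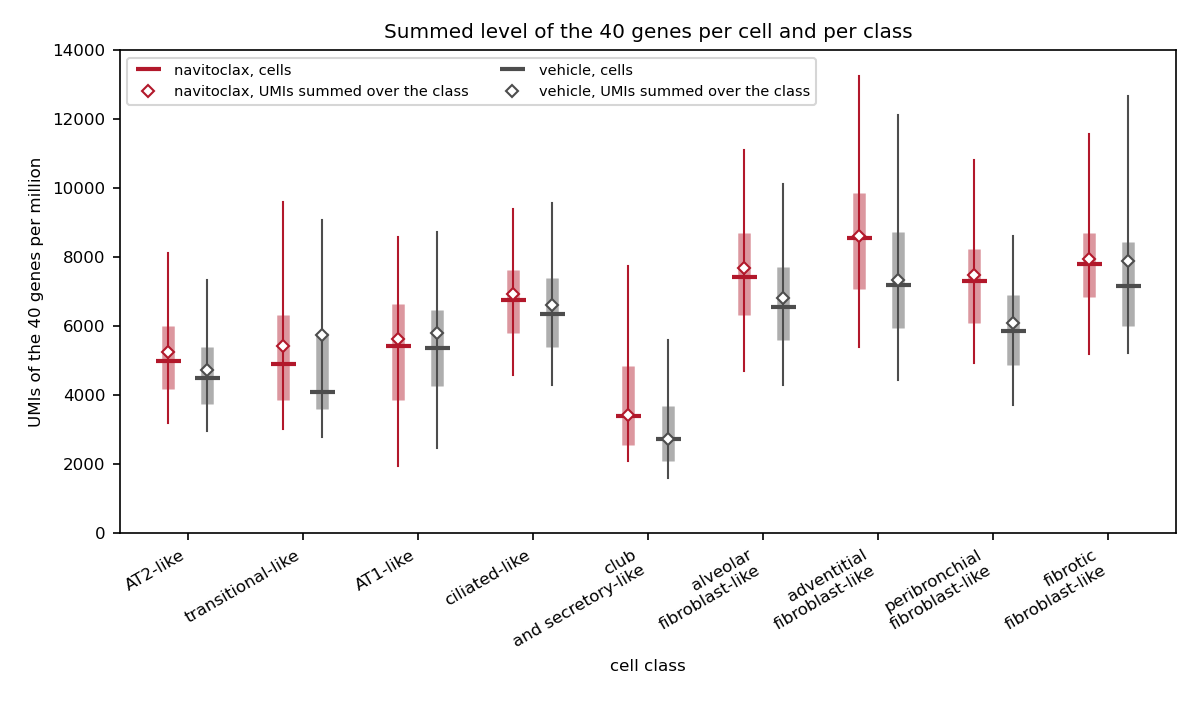
Level of all 40 genes together (CPM) in single cells of 9 classes, with the median (dash), the middle 50% (thick bar) and the 5th to 95th percentile (line) over cells, and the value of the UMIs summed over the class (diamond), navitoclax in red left of vehicle in grey. In most classes the dash lies near the diamond and navitoclax lies above vehicle, while in vehicle transitional-like cells the diamond (5737) lies far above the dash (4097).

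The libraries were unequally mixed within the AT2-like class, so ratios were also taken within single clusters that held at least 100 AT2-like cells of each library. There were 5 of these. One of them, led by Lcn2, Lrg1 and Lyz1, held 899 navitoclax and 124 vehicle AT2-like cells. The median log2 ratio of the 40 genes was above 0 in 5 of 5 clusters and ran from 0.04, in the cluster just named, to 0.18. In that cluster only 21 of 40 ratios were above 1, so the shift of the whole class was barely seen there. In the others 28 of 40, 31 of 39, 37 of 40 and 33 of 40 were above 1. Hspa5 was higher in the navitoclax library in all 5, by ratios from 1.11 to 1.19. In the cluster led by Sprr1a and Areg, for example, Hspa5 was at 339 CPM in navitoclax and 286 CPM in vehicle AT2-like cells. Sprr1a and Areg were also among the leading genes of the transitional-like class. Over all cells of that cluster, AT2-like or not, Hspa5 was at 347 CPM in navitoclax and 391 CPM in vehicle cells. Calr had ratios from 1.07 to 1.28 and Pdia3 from 1.14 to 1.29, again above 1 in 5 of 5. Canx was above 1 in 4 of 5, with ratios from 0.975 to 1.33, so its contrast with Calr did not hold in every cluster. Dnajb9 was lower in all 5, with ratios from 0.757 to 0.924. Sdf2l1 and Manf were each above 1 in 4 of 5 clusters. Hspa5, Calr and Pdia3 were thus on the opposite side of 1 from Dnajb9 inside each of these clusters, while Sdf2l1 and Manf were so in 4. Leaving out the cluster led by Lcn2, an alternative chosen after seeing the data, left the median of the AT2-like class at 0.15. Then 6 genes were higher and 0 lower, counts for which the share of all genes is not given.

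Among fibroblast-like cells 8 clusters met the same minimum. The libraries were unequally mixed here too, with 562 navitoclax and 235 vehicle cells in 1 cluster and 399 navitoclax and 984 vehicle cells in another, where the median log2 ratios were 0.18 and 0.14. Over all of them the median log2 ratio was above 0 in 8 of 8, from 0.09 to 0.25. Hspa5 had ratios from 1.16 to 1.60 in these clusters and was above 1 in all 8. The greatest was in a cluster with 313 navitoclax and 342 vehicle cells, where Hspa5 was at 856 CPM in navitoclax and 534 CPM in vehicle cells. Manf, Calr, Pdia3, P4hb, Txndc5, Tram1 and Ostc were each above 1 in 8 of 8, and Edem1 in 7 of the 7 clusters with enough UMIs. The co-chaperone genes Dnajb9 and Dnajc3 were above 1 in 3 of 8 and 2 of 8 clusters, and Sec63, which docks BiP at the translocon, in 3 of 8. Of its other partners, Dnajb11 was above 1 in 8 of 8 and Hyou1 in 6 of the 7 clusters with enough UMIs.

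**Figure D4:**
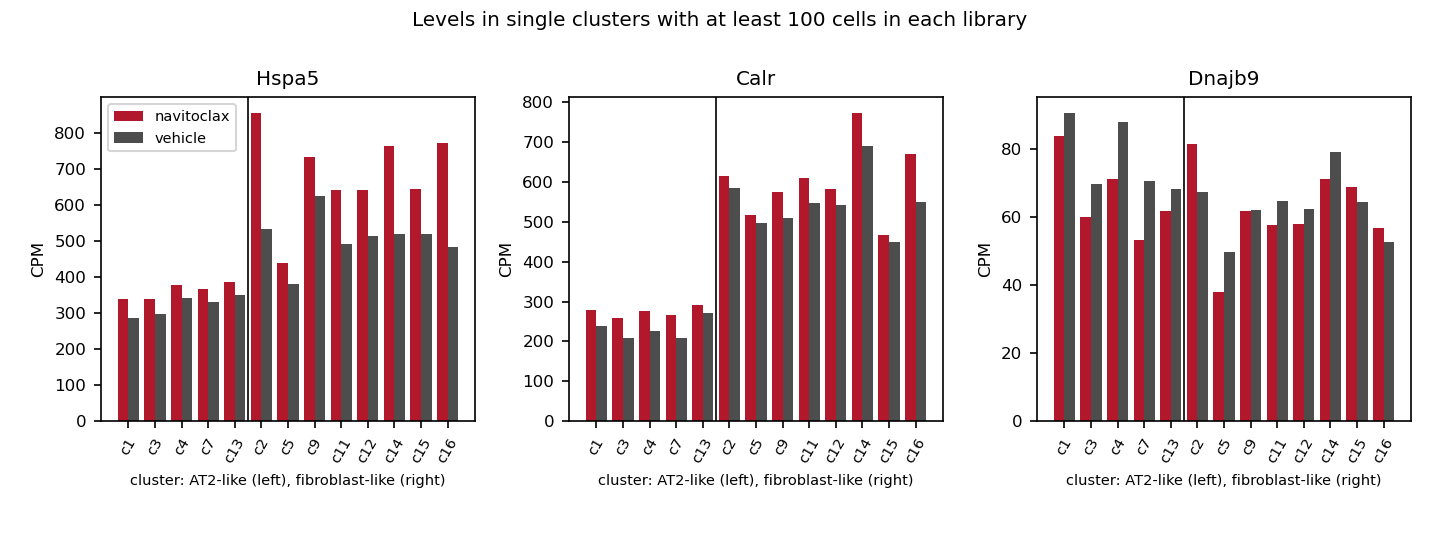
CPM of Hspa5, Calr and Dnajb9 in navitoclax (red) and vehicle (grey) cells of the 5 clusters of AT2-like cells (left of the line) and the 8 clusters of fibroblast-like cells (right of it), without error bars since each bar is 1 sum of UMIs. Hspa5 and Calr are higher in navitoclax in all 13 clusters, while Dnajb9 is lower in navitoclax in all 5 AT2-like clusters and in 5 of 8 fibroblast-like ones.

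The ranges of the ratios of genes with and without an ERSE or ERSE-II match overlapped in each of the 4 classes looked at. In AT2-like cells the 10 genes with a match had a median log2 ratio of 0.16, from 0.00 (Dnajc3) to 0.56 (Derl3), and 10 of 10 were above 0. The 21 genes without a match had a median of 0.12, and 18 of 21 were above 0. In fibroblast-like cells the medians were 0.14 with and 0.13 without a match. Sdf2l1 and Pdia3, among the highest in AT2-like cells, had neither element in the window searched, and Hspa5 and Dnajc3, with ratios of 1.35 and 0.996 in fibroblast-like cells, both had ERSE. In transitional-like cells 2 of 9 genes with a match were above 0, with a median of −0.18, against 11 of 21 without a match and a median of 0.04, and the vehicle cell described above is part of these values. In ciliated-like cells the medians were 0.01 with and 0.09 without a match.

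Across cell classes, the level of each gene was compared between 9 classes within each library, and a pattern is given only where both libraries show it. The total of UMIs is dominated by few genes in some classes, which sets the scale. Secretoglobins made up 55.7% of UMIs in navitoclax and 61.1% in vehicle club and secretory-like cells, and surfactant genes 27.9% and 27.1% in AT2-like cells of these libraries. For 25 of the 40 genes the same class was highest in both libraries (63.3% of all genes with at least 20 UMIs in each library). It was the ciliated-like class for 8 (24.9% of all genes), which is near the background. It was the adventitial fibroblast-like class for 6 (4.86% of all genes) and the fibrotic fibroblast-like class for 4 (3.5% of all genes), both above the background. The AT1-like class was highest for 4 (9.34% of all genes), the alveolar fibroblast-like class for 2 (7.07% of all genes) and the transitional-like class for 1 (1.86% of all genes). Club and secretory-like cells were lowest for 33 genes in both libraries (40.5% of all genes). The small classes, AT1-like with 38 navitoclax and 126 vehicle cells, club and secretory-like with 58 and 84, and fibrotic fibroblast-like with 57 and 56, give less precise levels. In the vehicle fibrotic fibroblast-like class a single cell held 864 of the 4536 UMIs of the 40 genes. That cell had these genes at 10873 CPM, against 7880 CPM in the class, so the class levels rest partly on it.

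Of the 8 genes highest in ciliated-like cells, Creld2 and Srp19 were the furthest above the next class in both libraries. Creld2 was at 107 CPM in the navitoclax and 103 CPM in the vehicle library, while the next class reached 37.6 CPM in the navitoclax and 35.6 CPM in the vehicle library. Over AT2-like cells, Creld2 was 4.55-fold (4.11 to 5.03) higher in the navitoclax and 5.32-fold (4.72 to 5.98) higher in the vehicle library. Srp19, which helps assemble the signal recognition particle, was at 193 CPM in navitoclax and 183 CPM in vehicle ciliated-like cells, 3.003-fold and 3.009-fold over AT2-like cells of the same library. Hsp90b1 was 2.65-fold (2.56 to 2.74) and 2.98-fold (2.87 to 3.10) over AT2-like cells in the navitoclax and the vehicle library, but at 832 CPM in navitoclax ciliated-like cells it was close to the 824 CPM of peribronchial fibroblast-like cells. Dnajb9 went the opposite way, at 14.2 CPM in navitoclax and 10.6 CPM in vehicle ciliated-like cells, the lowest of the 9 classes, against 66.0 and 76.7 CPM in navitoclax and vehicle AT2-like cells. At least 1.5-fold higher in ciliated-like than in AT2-like cells in both libraries were 12 of 40 genes (47% of all genes), and 2 of 40, Dnajb9 and Ssr1, were lower (16.5% of all genes). Since the median of all genes was itself shifted by 0.62 on the log2 scale in both libraries, the counts relative to that median were 4 higher (28.6% of all genes) and 18 lower (27.7% of all genes). The 4 were Hsp90b1, Sdf2l1, Creld2 and Srp19, and 9 of the 10 translocon genes, all but Sec61b, were among the 18.

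Fibroblast-like over AT2-like cells gave 16 of 40 genes at least 1.5-fold higher in both libraries (47.2% of all genes) and 0 lower (16.3% of all genes). Hsp90b1 was 2.18-fold (2.13 to 2.23) higher in the navitoclax and 2.20-fold (2.15 to 2.25) higher in the vehicle library. Txndc5 was 2.35-fold (2.25 to 2.47) and 2.27-fold (2.16 to 2.38) higher in the navitoclax and vehicle libraries, and Sec24d 3.27-fold (2.99 to 3.58) and 3.13-fold (2.86 to 3.44). Relative to the median of all genes, which was shifted by 0.59 in the navitoclax and 0.60 in the vehicle library, 3 genes were higher (28.9% of all genes) and 7 lower (26.5% of all genes). The 3 were Sdf2l1, Pdia3 and Sec24d, and the 7 were Hyou1, Dnajb9, Sel1l, Derl3, Sec61b, Tram1 and Serp1. On that scale AT2-like cells were the higher class for these 7 genes, a share below that of all genes. No pattern by role is read from them.

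Within the fibroblasts, 2 of 39 genes were at least 1.5-fold higher in adventitial than in alveolar fibroblast-like cells in both libraries (9.35% of all genes) and 0 lower (15.6% of all genes). Ssr4, the δ subunit of TRAP, was at 514 CPM in navitoclax and 424 CPM in vehicle adventitial fibroblast-like cells, 1.86-fold (1.76 to 1.95) and 1.78-fold (1.68 to 1.88) over alveolar fibroblast-like cells of these libraries. Sec24d was at 73.2 CPM in navitoclax and 64.2 CPM in vehicle adventitial fibroblast-like cells, 1.61-fold (1.40 to 1.84) and 1.62-fold (1.40 to 1.86) over the alveolar class. Ssr1 ran the opposite way to Ssr4 although both encode subunits of 1 complex. It was highest in alveolar fibroblast-like cells, at 206 CPM in navitoclax and 186 CPM in vehicle cells, against 150 and 132 CPM in the adventitial class. Peribronchial over alveolar fibroblast-like cells gave 0 of 39 genes higher (10.2% of all genes) and 3 lower (14.7% of all genes), Sdf2l1, Sel1l and Ssr1. Fibrotic over alveolar fibroblast-like cells gave 0 of 39 in either direction (6.28% and 10.5% of all genes higher and lower). Transitional-like over AT2-like cells also gave 0 of 40 in either direction (14.5% and 4.73% of all genes). Relative to the median of all genes, 0 were higher (8.19% of all genes) and 1 was lower (8.08% of all genes), Ssr1.

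Club and secretory-like over AT2-like cells gave 0 of 40 genes higher (7.66% of all genes) and 24 lower (56.3% of all genes). Relative to the median of all genes, which was −0.86 in the navitoclax and −1.01 in the vehicle library, 3 were higher and 3 lower (17.4% of all genes in each direction). The low CPM of these genes in club and secretory-like cells was therefore shared by most genes. Club and secretory-like over ciliated-like cells gave 1 of 39 genes higher, Dnajb9 (3.21% of all genes), and 27 lower (82.7% of all genes), while relative to the median of all genes 17 were higher (19.1% of all genes) and 2 lower (21.5% of all genes). AT1-like over AT2-like cells gave 3 of 40 genes higher (32.5% of all genes), Pdia3, Ssr2 and Sec24d, and 1 lower, Ssr1 (10.7% of all genes). Ssr2 reached its highest level in AT1-like cells, at 293 CPM in the navitoclax and 330 CPM in the vehicle library.

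**Figure D5:**
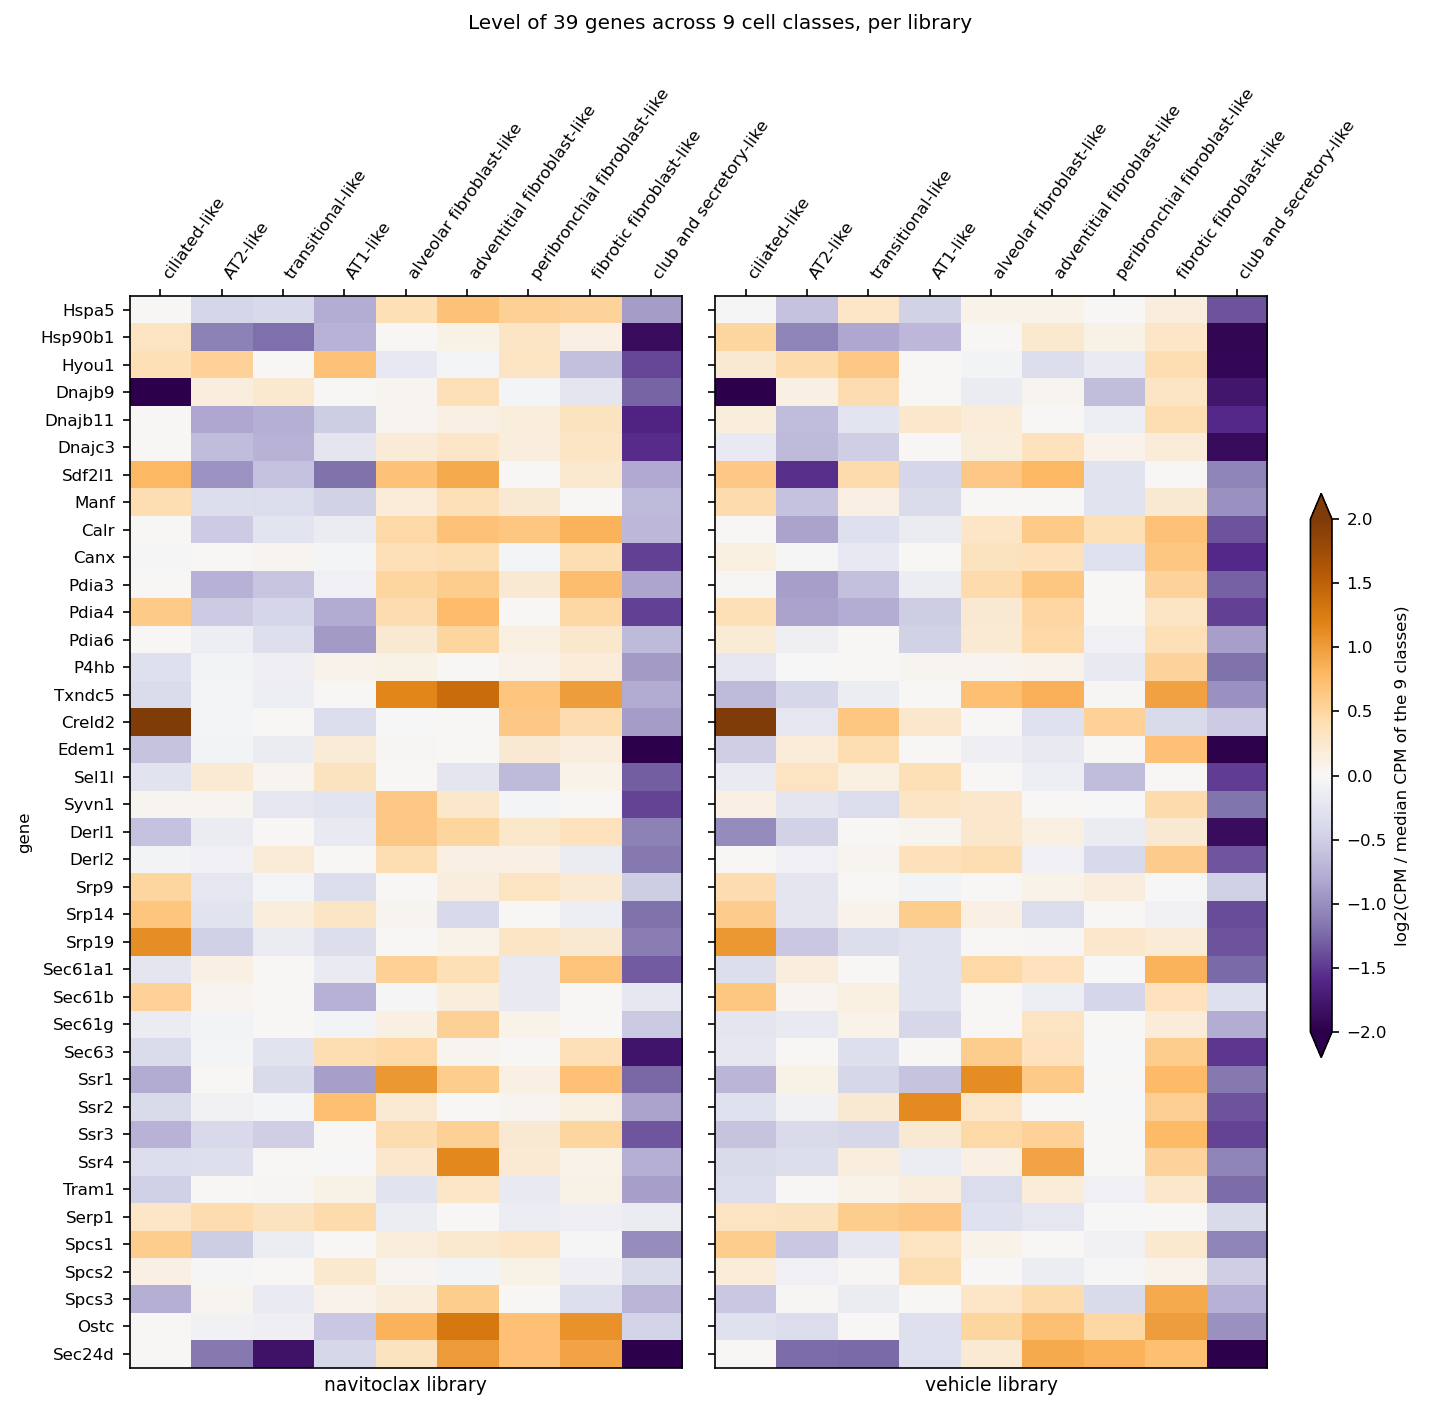
Level of 39 of the 40 genes (down the page; Derl3 is left out for its few UMIs) in 9 cell classes (across), as log2 of CPM over the median CPM of the 9 classes, in the navitoclax library (left) and the vehicle library (right). Creld2 and Srp19 stand out in ciliated-like cells, Dnajb9 is lowest there, Ssr4 and Sec24d are high in adventitial fibroblast-like cells, and the club and secretory-like column is dark for most genes.

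Other genes of the same steps were taken from lists beside the 40. Of all genes, 13.6% were at least 1.2-fold higher and 8.02% lower in AT2-like cells. In fibroblast-like cells these shares were 14% and 10.3%. Of 17 other ER folding genes tested in AT2-like cells, 1 was at least 1.2-fold higher and 0 lower, with a median log2 ratio of 0.10. That 1 was Pdia5, at 105 UMIs in navitoclax and 71 UMIs in vehicle cells (1.48, 1.08 to 2.03), while Fkbp2, an ER prolyl isomerase, was at 189 and 160 CPM (1.18). Of 20 other degradation genes, 0 passed the fold in either direction in AT2-like cells, and the median was −0.04. Herpud1, which assembles the ligase complex and is itself induced by ER stress, was at 182 CPM in navitoclax and 211 CPM in vehicle AT2-like cells (0.863, 0.838 to 0.888). In fibroblast-like cells the degradation list gave 0 genes in either direction and a median of −0.02. Of 19 other genes of targeting, translocation and glycosylation, 0 passed in AT2-like cells (median 0.12) and 1 was higher in fibroblast-like cells (median 0.11). It was Stt3a, a catalytic subunit of the oligosaccharyltransferase, at 112 CPM in navitoclax and 92.4 CPM in vehicle cells (1.22, 1.15 to 1.29). The 9 other COPII genes had medians of 0.01 in AT2-like and 0.17 in fibroblast-like cells, with 0 past the fold in either, and 6 of 9 were higher in adventitial fibroblast-like cells (19.7% of all genes). Among them Sec23a, a coat subunit, was at 40.7 CPM in navitoclax and 27.9 CPM in vehicle cells (1.46, 1.15 to 1.86).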

How the data were processed

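Single-cell RNA was measured in 1 navitoclax and 1 vehicle library. The authors deposited raw UMI counts for each gene and barcode. Per the labels, libraries were made with the Chromium 3′ chemistry. The file headers name Cell Ranger 4.0.0, and the submitters' processing notes name mm10. Other settings are not known here. Scrublet in scanpy 1.11.5, run on each library at an expected doublet rate of 6%, marked 217 navitoclax and 222 vehicle cells, which were removed. Free RNA was not subtracted.

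A cell was given the class with the highest scaled marker score, if it led the next by at least 0.1, with these exceptions. AT1-like cells also needed a score of at least 0.5. Other AT2 or AT1 cells by score were transitional-like at a transitional score of at least 0.35, with no lead required. Fibroblast-like cells were fibrotic at a fibrotic score of at least 0.3, whatever their other subclass. Cells with at least 500 secretory UMIs per 10000 were club and secretory-like whatever their highest score, if AT2, ciliated and fibroblast scores were low. Scores and limits were set after seeing the data. Smooth muscle, mesothelial and unassigned cells were left out of the 9 classes. Leiden clustering at resolution 1.5 on 2000 variable genes gave 27 clusters. Classes with at least 100 cells in each library were compared between treatments. CPM ratios have conditional exact (Clopper-Pearson) 95% intervals, which cover counting error only, not mice or preparations. The code for ratios was tested on simulated data. Members were described by role. Within each role and class up to 3 genes were named by the size of their log2 ratio, if they had 50 UMIs or more. The members and gene lists, and other genes singled out such as Hspa5 and Dnajb9 in AT2-like cells, were chosen with earlier results of these data known. Alternatives changed the cell filters, classes, totals, depth and folds.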

Additional observations from a re-analysis of the deposited data

Results flagged for a closer look

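Among the genes whose ratio of navitoclax over vehicle pointed to opposite sides in different cell classes, 4 were flagged. In each case the difference between the classes was not tested, since there was 1 library per treatment. Hspa5 had a ratio of 1.35 in fibroblast-like and 0.632 in transitional-like cells. Sdf2l1 had a ratio of 1.55 in AT2-like and 0.498 in transitional-like cells. Manf had a ratio of 1.23 in AT2-like and 0.733 in transitional-like cells. Creld2 had a ratio of 1.21 in AT2-like and 0.684 in transitional-like cells. Beside these values stands the vehicle cell that held 42.3% of the Hspa5 UMIs of vehicle transitional-like cells. Without the cell richest in the 40 genes in each library, the log2 ratios in transitional-like cells were 0.05 for Hspa5, −0.23 for Sdf2l1, −0.10 for Manf and −0.18 for Creld2. Other members, among them Hyou1, Dnajb9 and Derl3, were past the fold on both sides as well. With all cells, Hyou1 had log2 ratios of 0.29 in AT2-like and −0.43 in transitional-like cells. Those of Dnajb9 were 0.42 in ciliated-like and −0.43 in transitional-like cells. Derl3, with few UMIs, had 0.56 in AT2-like and −0.29 in fibroblast-like cells.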

How the results depend on the processing

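The median log2 ratio of the 40 genes stayed above 0 in 6 of 7 classes under each alternative run, at 0.10 to 0.15 in AT2-like, 0.05 to 0.10 in ciliated-like, 0.14 to 0.17 in fibroblast-like, 0.14 to 0.16 in alveolar, 0.18 to 0.21 in adventitial and 0.21 to 0.32 in peribronchial fibroblast-like cells. In transitional-like cells it ran from −0.11 to 0.05, so its direction was not fixed. Counts of genes past the fold moved more, and for those given next the cause was not tested unless the setting itself changes the fold or the UMI minimum. The share of all genes past the fold under each setting is not given here. These counts therefore show only how far the calls move, and cannot be set against a background. At a fold of 1.5, genes higher were 1 in AT2-like, 0 in transitional-like, ciliated-like, fibroblast-like and alveolar fibroblast-like, 1 in adventitial and 4 in peribronchial fibroblast-like cells, and genes lower were 2 in transitional-like and 0 in ciliated-like, fibroblast-like and peribronchial fibroblast-like cells. With a mitochondrial limit of 30%, 1 gene was higher in transitional-like cells, and 0 were lower in ciliated-like and in peribronchial fibroblast-like cells. With a limit of 10%, 4 were higher in ciliated-like and 0 lower in fibroblast-like cells. With no doublets removed, 0 were higher in ciliated-like cells. With cells thinned to 2000 UMIs, which left out 345 navitoclax and 395 vehicle cells, 10 were higher in transitional-like and 8 in ciliated-like cells, while 3 were lower in ciliated-like, 0 in fibroblast-like, 3 in adventitial and 4 in peribronchial fibroblast-like cells. With a total that left out mitochondrial, ribosomal, surfactant, secretoglobin and collagen genes, and likewise with scaling by the median ratio of all genes, 1 was higher in transitional-like cells. With a minimum of 100 UMIs, 0 were lower in fibroblast-like and in peribronchial fibroblast-like cells, and with classes from clusters 0 in peribronchial fibroblast-like cells. Without the top cell of each library, 4 were higher and 3 lower in transitional-like cells. Of the genes with 1 highest class in both libraries, classes from clusters gave 2 for AT1-like, 6 for alveolar and 14 for adventitial fibroblast-like cells. No cluster was labelled fibrotic fibroblast-like or transitional-like, so these classes were absent from that alternative. Thinning gave 0 for transitional-like and 2 for AT1-like cells, and the reduced total gave 3 for ciliated-like and 1 each for AT1-like and alveolar fibroblast-like cells. Of 147 gene and class values named, 56 were past the fold of 1.2, and 3 of these turned: Hspa5 in transitional-like cells to 0.05 without the top cells, and with thinning Hyou1 in ciliated-like cells to −0.05 and Creld2 in adventitial fibroblast-like cells to −0.88. Of the 91 values under the fold, 27 changed sign under at least 1 alternative, 18 of them with thinning, which leaves few UMIs per gene. No paired analysis was possible because each treatment has 1 library. Depth limits the genes with few UMIs, such as Derl3.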

Other observations

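Mesothelial-like cells, 30 navitoclax and 61 vehicle cells outside the classes compared, had the 40 genes at 9044 CPM in navitoclax and 7934 CPM in vehicle cells. In smooth muscle and pericyte-like cells the 40 genes were at 5828 CPM in navitoclax and 4608 CPM in vehicle cells. In AT1-like cells they were at 5627 CPM in navitoclax and 5798 CPM in vehicle cells.

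A list of 12 immediate-early genes, which are known to respond to tissue dissociation, had a median log2 ratio of navitoclax over vehicle of −0.21 in AT2-like, −0.18 in transitional-like, 0.15 in ciliated-like and −0.13 in fibroblast-like cells. At least 1.2-fold lower in AT2-like cells were 5 of the 12 (8.02% of all genes), and 1 was higher (13.6% of all genes). The part of these genes in the ratios of the ER genes was not tested.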
